A study of Homo sapiens with 10 samples.

Results

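The E2F, RB and cyclin E genes are the core of the switch that commits a cell to DNA replication. Described here are 10 of them, listed by symbol, out of 60623 genes in the deposited tables: the activator E2F factors E2F1, E2F2 and E2F3, the atypical repressors E2F7 and E2F8, the pocket proteins RB1, RBL1 (p107) and RBL2 (p130), and the cyclins CCNE1 and CCNE2. All 10 were among the 18450 genes with enough reads to be tested. Their mRNA was measured, in 10 libraries, in A375, an established human melanoma line that carries an activating BRAF mutation, by sequencing of poly(A)-selected RNA. Cells were harvested 72 h after transfection with small interfering RNA (siRNA), in 2 separate experiments. Experiment 1 held 4 libraries with siRNA against PHF10, a subunit of the nucleosome-remodelling complex PBAF, and 2 control libraries. Experiment 2 held 2 libraries labelled as knockdown of MYC, the oncogenic transcription factor, and 2 control libraries. About the controls the labels disagree: a control siRNA is named in the protocol, but the control samples are marked as untreated. Separate cultures are not mentioned for the replicates, so a p-value here measures only how far these libraries spread, which may be technical. In bulk RNA, fewer cells in a phase of the cycle and less mRNA per cell cannot be told apart.

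In a resting cell the pocket proteins bind E2F factors and keep their target genes silent. Cyclin D and cyclin E with their kinases phosphorylate the pocket proteins, which releases the activator E2F factors to switch on genes of DNA replication, among them E2F1 itself and the cyclin E genes. E2F7 and E2F8, which do not bind pocket proteins, are themselves induced by E2F and later repress the same targets. In melanoma the pathway is often disturbed upstream of RB, through loss of the inhibitor encoded by CDKN2A.

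The promoters of 4 members held a consensus E2F sequence just upstream of the transcription start, shown here because E2F genes are textbook targets of E2F itself. The windows ran from 250 bases before to 50 bases after each RefSeq start (build GRCh38.p14), and 8 of the 10 genes had at least 1 window. The 4 words TTTCCCGC, TTTCGCGC, TTTGCCGC and TTTGGCGC were searched on both strands, and capitals mark them in the sequences that follow, printed on the strand of the gene and 5′ to 3′.
E2F1: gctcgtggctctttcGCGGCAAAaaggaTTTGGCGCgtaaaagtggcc
E2F2: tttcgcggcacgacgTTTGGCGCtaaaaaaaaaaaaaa
E2F3: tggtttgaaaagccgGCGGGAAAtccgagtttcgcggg
RBL1: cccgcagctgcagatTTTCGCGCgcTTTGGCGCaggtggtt

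These stretches lie at chr20:33686386-33686433 (minus strand) for E2F1, chr1:23531253-23531290 (minus) for E2F2, chr6:20401811-20401848 (plus) for E2F3 and chr20:37095998-37096038 (minus) for RBL1. E2F1 and RBL1 had 2 words each and E2F2 and E2F3 had 1, and the first word of E2F1 and that of E2F3 read on the opposite strand. Of all 35116 promoter windows of the same length, 3.31% held at least 1 of the words and 0.145% held 2 or more. In the windows used here for E2F7, RBL2, CCNE1 and RB1 these letters did not occur. The window for RB1 lies inside the gene, at an alternative start (chr13:48476200-48476499). A second RefSeq window of E2F3, at chr6:20403364-20403663, held no E2F word but held the E-box CACGTG, the sequence that MYC with MAX is known to bind, which reads the same on both strands, overlaps no E2F word and occurred in 7.26% of all windows and in no other member window. The cell cycle element TTTGAA, searched on both strands, was in 1 window each of E2F3 and RBL2 and in 15.2% of all windows. A match is a description of the letters and not evidence of binding.

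In GRCh38 (GENCODE release 29) E2F1 (ENSG00000101412) lies at chr20:33675683-33686404, E2F2 (ENSG00000007968) at chr1:23506430-23531220 and E2F3 (ENSG00000112242) at chr6:20401906-20493715. E2F7 (ENSG00000165891) lies at chr12:77021247-77065580 and E2F8 (ENSG00000129173) at chr11:19224063-19241620. RB1 (ENSG00000139687) lies at chr13:48303726-48599436, RBL1 (ENSG00000080839) at chr20:36996349-37095995 and RBL2 (ENSG00000103479) at chr16:53433977-53491649. CCNE1 (ENSG00000105173) lies at chr19:29811898-29824308 and CCNE2 (ENSG00000175305) at chr8:94879770-94896678. The reads of a gene are those over its exons.

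Gene reads numbered 20.5 to 27.0 M per library in experiment 1 and 30.01 to 38.4 M in experiment 2. Levels are given as counts per 1 M gene reads (CPM, with library sizes scaled by TMM factors), and as CPM per kilobase of summed exons (RPKM) where genes are compared with each other. Of 11 melanocyte and melanoma markers, SOX10 (528 to 948 CPM over the libraries) and CSPG4 (787 to 2600 CPM) were high, while the pigment genes MLANA and TYR were at most 0.0571 CPM. The summed level of 13 epithelial, immune, endothelial and fibroblast markers was at most 21.1 CPM in any library. Within experiment 1, a list of 41 type I interferon genes split the libraries of both groups: the mean log2 level was 7.45 and 7.14 in PHF10 knockdown replicates 1 and 2 and 7.79 in control replicate 1, against 3.51, 4.69 and 4.54 in PHF10 knockdown replicates 3 and 4 and control replicate 2. The same 3 libraries with high interferon genes had more reads over no annotated exon on the strand counted (12.1% to 13.8% against 9.93% to 10.6%). They also had a higher summed level of the other cell markers (20.5 to 21.1 against at most 15.5 CPM). PHF10 mRNA measured 16.1, 17.96, 15.1 and 15.7 CPM in its 4 knockdown libraries and 40.1 and 36.6 CPM in their controls. MYC mRNA overlapped between the groups in both experiments. In experiment 1 it measured 12.9, 9.69, 14.6 and 22.0 CPM in the PHF10 knockdown libraries and 20.2 and 32.1 CPM in the controls. The log2 fold change was −0.82 there (SE 0.33; edgeR adjusted p = 0.174) and −0.46 (SE 0.39) in experiment 2. The labelled knockdown libraries had 16.7 and 13.3 CPM of it, against 14.95 and 26.5 CPM in the control pair (edgeR adjusted p = 0.688), so every direction in experiment 2 rests on the labels.

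In the controls of experiment 1, E2F1 was the member with the highest level per length, at 13.8 ± 0.071 RPKM (SD, n = 2). E2F3, RB1 and RBL2 followed at 11.3, 11.2 and 11.1 RPKM, and these 3 overlapped between libraries. CCNE1 stood at 7.42 RPKM, RBL1, E2F7 and CCNE2 at 5.51, 5.35 and 4.56 RPKM, and E2F2 and E2F8 at the bottom with 1.64 and 1.41 RPKM. Among RBL1, E2F7 and CCNE2 neighbours in this order overlapped, and the other steps were apart in both libraries. The controls of experiment 2 had more of every member, and E2F1 led there too with 28.1 ± 0.69 RPKM (SD, n = 2). E2F7 measured 13.3 RPKM there, and RB1 19.4 RPKM. The 2 control groups differ in experiment, so these differences in level cannot be told apart from differences between the experiments.

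**Figure D1:**
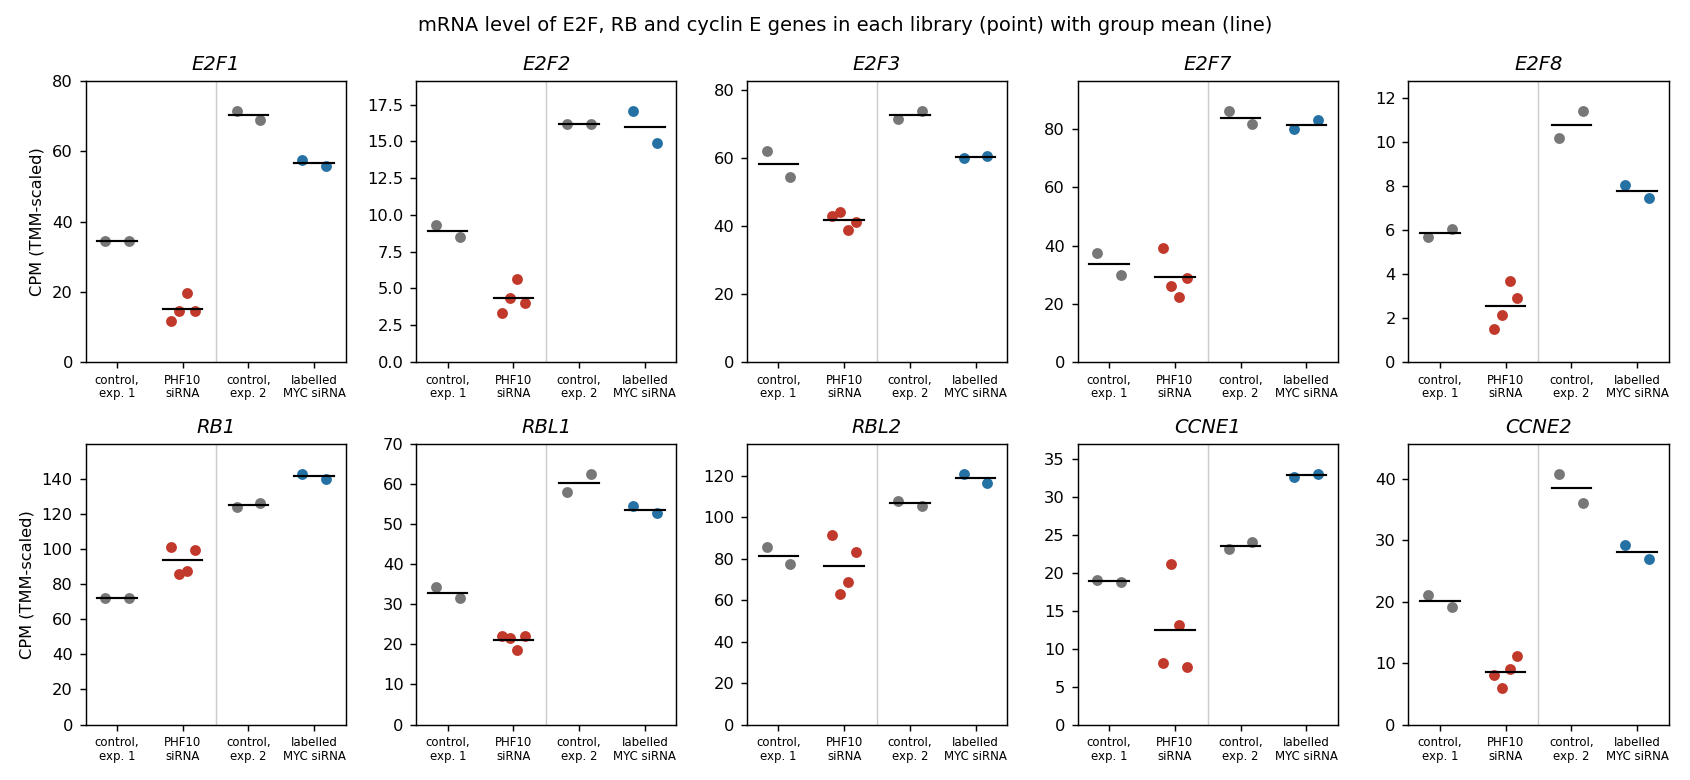
Level of each member in each library (points, CPM scaled by TMM factors, axes from 0) with the group mean (line), by group, with experiment 1 left and experiment 2 right of the grey line. For E2F1, E2F2, E2F3, E2F8, RBL1 and CCNE2 all 4 PHF10 knockdown libraries lie below both controls of experiment 1, as for 13.7% of all tested genes. For RB1 all 4 lie above both, as for 13.4%.

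In order of rank after PHF10 knockdown, RB1 led with 14.5 ± 1.22 RPKM (SD, n = 4), before RBL2 with 10.5 RPKM, and both were apart from the next gene. E2F3 and E2F1, at 8.10 and 5.998 RPKM, then CCNE1, E2F7 and RBL1, at 4.90, 4.61 and 3.55 RPKM, each overlapped with the next in that order. CCNE2 stood apart at 1.94 RPKM, and E2F2 and E2F8 overlapped at 0.797 and 0.618 RPKM.

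The first comparison asked which of these genes respond to loss of PHF10. Of the 10 members 6 fell and 0 rose past the threshold (edgeR quasi-likelihood, Benjamini-Hochberg adjusted p under 0.05 over all genes), where 3.58% of all tested genes fell, 2.75% rose and 6.34% did either. All 3 activator E2F genes fell, E2F1 by 2.29-fold, E2F2 by 2.05-fold and E2F3 by 1.39-fold. The atypical factor E2F8, the pocket protein RBL1 and the cyclin CCNE2 fell as well. E2F7, RB1, RBL2 and CCNE1 did not pass. The median log2 fold change of the 10 members was −0.62 against 0.02 over all genes tested. An unadjusted p under 0.05 was reached by 7 members and by 22.7% of all genes. Without control replicate 1 or control replicate 2 of experiment 1, only E2F1 passed, and with any 1 library of experiment 2 left out 4 members did. With experiment 1 fitted alone by edgeR, 0.28% of all genes were called in either direction and 0.151% fell. There 0 of the 10 passed and 7 had an unadjusted p under 0.05, at nearly the same fold changes. The 6 calls thus depended on including experiment 2, since the joint fit shares 1 estimate of the spread. The common biological coefficient of variation was 26.7% in experiment 1 alone, 3.39% in experiment 2 alone and 21.4% in the joint fit. DESeq2 and limma, fitted to all 10 libraries, called 6 members lower each, where they called 1133 and 648 of all genes lower.

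E2F1, the activator that gives the family its name, measured 34.6 and 34.4 CPM in the controls and 11.5, 14.4, 19.7 and 14.4 CPM in PHF10 knockdown replicates 1 to 4. The highest knockdown library, replicate 3, was still well below both controls, which lay close together. The log2 fold change was −1.20 (SE 0.17; edgeR adjusted p = 0.00572; n = 4 and 2). Its call held with any 1 library left out and was lost with experiment 1 fitted alone (adjusted p = 0.0627).

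E2F2, a second activator at a much lower level, measured 9.33 and 8.51 CPM in the controls and 3.35, 4.38, 5.63 and 4.04 CPM in the knockdown libraries. Replicate 3 was again the highest and replicate 1 the lowest. The groups were apart, as for 13.7% of all tested genes in the lower direction. E2F2 fell by 1.03 (SE 0.19; edgeR adjusted p = 0.0145). This call ended when control replicate 1 (adjusted p = 0.1) or control replicate 2 (0.0853) was left out.

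E2F3, the third activator, had 62.0 and 54.6 CPM in the controls and 43.1, 44.2, 38.9 and 41.1 CPM after knockdown. Its knockdown libraries were close to each other, and replicate 3, the highest for E2F1 and E2F2, was here the lowest. E2F3 fell by 0.48 (SE 0.098; edgeR adjusted p = 0.0215), a smaller fold than E2F1 or E2F2. This call was the least stable of the 6 and was kept in 11 of 22 alternatives: the adjusted p was 0.16 and 0.0738 without control replicate 1 or 2, and 0.0544 to 0.0572 with any 1 library of experiment 2 left out. Reads of the 2 protein isoforms of E2F3, which start at different promoters, are summed in a gene count.

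Of the atypical repressors, E2F8 was the lowest member, with 5.67 and 6.05 CPM in the controls and 1.48, 2.15, 3.71 and 2.91 CPM after knockdown. These rest on 122 and 140 reads in the controls and 33, 53, 100 and 67 reads in the knockdown libraries. The groups were apart, as for 13.7% of all tested genes in the lower direction. Replicates 1 and 2, which had high interferon genes, were the lowest. E2F8 fell by 1.19 (SE 0.29; edgeR adjusted p = 0.0413). It missed the threshold without PHF10 knockdown replicate 2 (0.0723) or 4 (0.055), without control replicate 1 (0.144) or 2 (0.216), and without any 1 library of experiment 2 (0.0805 to 0.0816).

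E2F7, the other atypical factor, measured 37.5 and 29.9 CPM in the controls against 39.2, 26.1, 22.2 and 28.7 CPM. Replicate 1 lay above both controls and the other 3 below both, so the groups overlapped. The log2 fold change was −0.21 (SE 0.20; edgeR adjusted p = 0.571).

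Of the pocket proteins only RBL1 passed in the main fit, and differences between them were not tested. RBL1, the member of the family that is itself a textbook E2F target, measured 34.2 and 31.5 CPM in the controls and 22.1, 21.6, 18.7 and 22.2 CPM after knockdown. The knockdown libraries were tightly grouped below both controls. RBL1 fell by 0.63 (SE 0.11; edgeR adjusted p = 0.0108), and missed the threshold without control replicate 1 (0.0871) or 2 (0.0583).

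RB1, the retinoblastoma protein gene, had 72.2 and 71.9 CPM in the controls and 101, 85.7, 87.6 and 99.3 CPM in the knockdown libraries. It was the only member with a positive fold change, and all 4 knockdown libraries lay above both controls, as for 13.4% of all tested genes. The log2 fold change of 0.37 (SE 0.10) missed the threshold by edgeR (adjusted p = 0.0662). It passed by DESeq2 (0.00957), and by edgeR with upper-quartile factors (0.0424), with a stricter filter (0.0454), with the interferon split as a term (0.0326) and without PHF10 knockdown replicate 2 (0.0469). Of all genes, 508 rose in the joint fit, while 1032 did by DESeq2, 627 with upper-quartile factors, 584 with the stricter filter and 1073 with the split as a term.

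RBL2 (p130), the pocket protein of quiescent cells, measured 85.5 and 77.7 CPM in the controls and 91.4, 63.1, 68.7 and 83.5 CPM after knockdown, with a log2 fold change of −0.09 (SE 0.15; edgeR adjusted p = 0.773). The groups overlapped, with replicate 1 highest of all.

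The 2 cyclin E genes, whose products activate the kinase CDK2 at the start of replication, differed in that CCNE2 passed the test and CCNE1 did not, and the difference between them was not tested. CCNE2 measured 20.99 and 19.1 CPM in the controls and 8.004, 5.96, 9.08 and 11.1 CPM after knockdown, every library well below the controls. It fell by 1.23 (SE 0.20; edgeR adjusted p = 0.00903), the largest fold of the 10 members, a call that ended without control replicate 1 (0.0711) or 2 (0.0579). In the annotation 37% of the exon bases of CCNE2 are shared with INTS8 on the opposite strand. Counting was by strand, and with the unstranded column CCNE2 still fell, by 1.03 (adjusted p = 0.0172).

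CCNE1 measured 19.0 and 18.8 CPM in the controls and 8.09, 21.2, 13.1 and 7.64 CPM in the knockdown libraries. Replicate 2 lay above both controls and was the highest library for CCNE1 in experiment 1, while it was the lowest for CCNE2. The log2 fold change of −0.60 (SE 0.34) did not pass (edgeR adjusted p = 0.341). Without PHF10 knockdown replicate 2 it was −0.97 and passed (0.0329). It also passed with no filter on low counts (0.0219), where 1237 of all genes fell, against 661 in the main fit.

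The share of cyclin E transcripts that came from CCNE1, by RPKM, was 61.0% and 62.9% in the controls of experiment 1 and 63.6%, 86.0%, 71.4% and 54.3% in PHF10 knockdown replicates 1 to 4. Replicate 4 was thus below the controls and the other 3 above. Among the activators, E2F1 made up 50.2% and 53.1% of the summed RPKM in the controls and 34.0%, 38.1%, 47.9% and 39.8% after knockdown, and E2F3, which fell least, took up most of the rest. The summed RPKM of the 3 pocket proteins over that of the 3 activators was 1.04 and 1.05 in the controls and 2.35, 1.69, 1.59 and 2.11 in the knockdown libraries. These sums restate the levels above and were not tested.

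**Figure D2:**
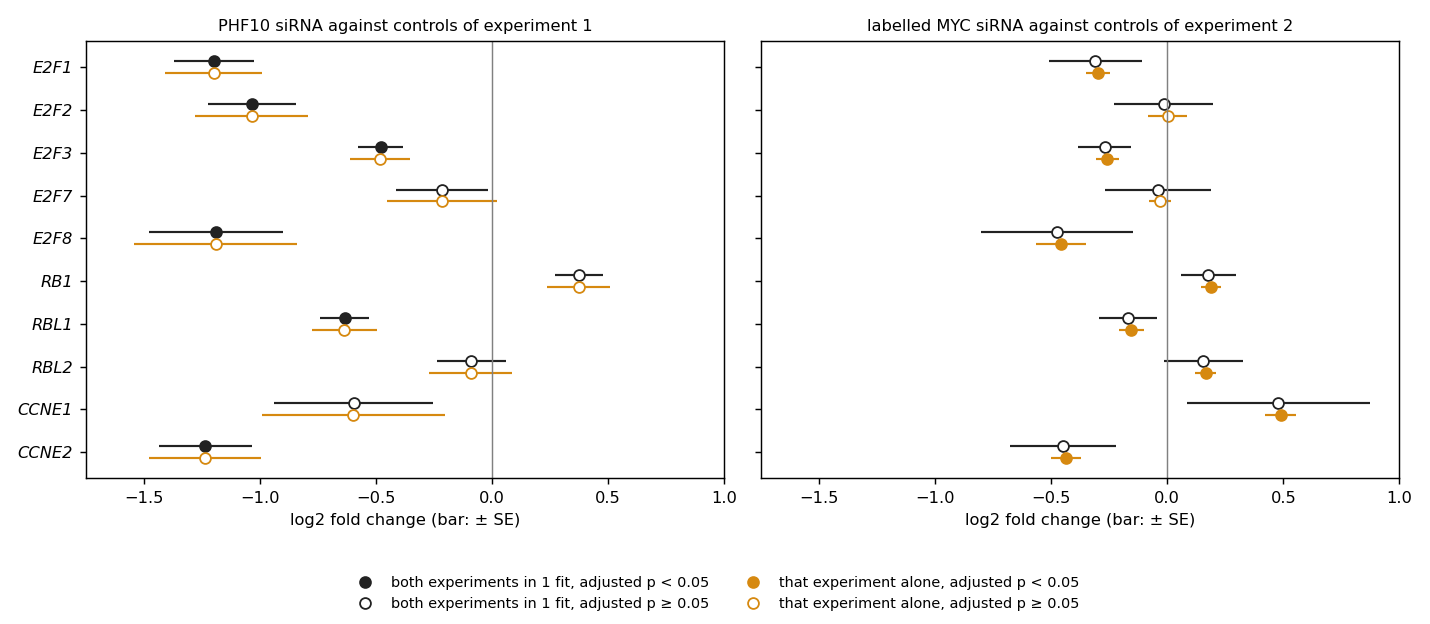
Log2 fold change of each member (points, bars ± SE) after PHF10 siRNA (left) and in the libraries labelled MYC siRNA (right), from 1 fit of all 10 libraries (black) and from a fit of that experiment alone (orange); filled points have an adjusted p under 0.05. The values hardly differ between the fits while the calls do: 6 against 0 after PHF10 siRNA and 0 against 8 in experiment 2.

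The values after PHF10 knockdown are also given within each part of the interferon split, which was defined after seeing the data and holds 2 knockdown libraries and 1 control in each part. In the part with high interferon genes (PHF10 knockdown replicates 1 and 2, control replicate 1) E2F8 was lower after knockdown by −1.63 on the log2 scale, CCNE2 by −1.59, E2F1 by −1.42 and E2F2 by −1.27. In the part with low interferon genes (replicates 3 and 4, control replicate 2) the same differences were −0.87, −0.93, −1.02 and −0.83. E2F3, RBL1 and RB1 had −0.51, −0.64 and 0.37 in the first and −0.45, −0.63 and 0.37 in the second. CCNE1 had −0.54 and −0.90. Within the knockdown libraries alone, E2F8 was −0.86 and CCNE2 −0.53 lower in the high part, while their controls differed by −0.09 and 0.13. With the split as a term in the joint fit, 6 members fell and RB1 rose, where 1394 of all genes fell and 1073 rose, against 661 and 508 without the term. Differences between the parts, and the part of the split in these falls, were not tested.

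**Figure D3:**
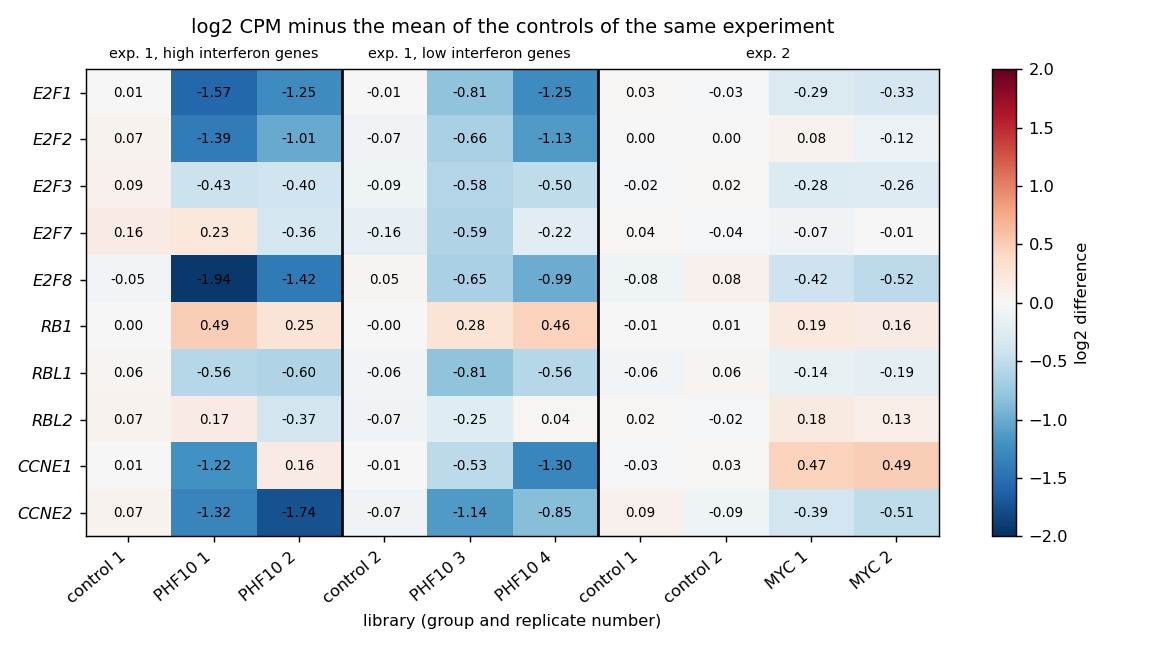
Log2 CPM of each member (rows) in each library (columns) minus the mean of the controls of the same experiment, with the libraries of experiment 1 ordered by interferon part. E2F1, E2F2, E2F3, E2F8, RBL1 and CCNE2 are negative in all 4 PHF10 knockdown libraries. RB1 is positive in all 4, and CCNE1 is positive in replicate 2 alone of these.

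The second comparison asked the same of MYC, as far as the labels hold. In the fit of all 10 libraries 0 of the 10 members passed by edgeR, DESeq2 or limma, and only E2F3 had an unadjusted p under 0.05, where 0.282% of all tested genes rose, 0.211% fell and 0.493% did either, and 13.2% had an unadjusted p under 0.05. The replicates of experiment 2 were far closer to each other than those of experiment 1 (common biological coefficient of variation 3.39% against 26.7%, and 21.4% in the joint fit). With experiment 2 fitted alone 5 members fell (E2F1, E2F3, E2F8, RBL1 and CCNE2) and 3 rose (RB1, RBL2 and CCNE1), where 22.6% of all genes fell and 21.9% rose. E2F2 and E2F7 did not pass in either fit. All fold changes were small. The values that follow are from experiment 2 fitted alone, where 44.5% of all genes were called. Those given above for PHF10 knockdown are mainly from the joint fit. In the joint fit the edgeR adjusted p of the members in experiment 2 ran from 0.353 for E2F3 to 0.987 for E2F2. It was 0.57 for E2F1, 0.445 for CCNE2 and 0.68 for CCNE1. The calls that follow thus depended on fitting experiment 2 alone.

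E2F1 measured 71.5 and 69.0 CPM in these controls and 57.5 and 55.9 CPM in the labelled libraries, a fall of 0.30 (SE 0.051; edgeR adjusted p = 2.74e-06; n = 2 and 2). E2F3 went from 71.5 and 73.9 CPM to 60.0 and 60.6 CPM, a fall of 0.26 (SE 0.050, adjusted p = 2.52e-05). For both genes the 2 groups were apart, as for 36% of all genes in the lower direction, and the replicates were within a few CPM of each other.

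E2F8 went from 10.2 and 11.4 CPM to 8.04 and 7.49 CPM, and fell by 0.46 (SE 0.11, adjusted p = 0.00038). CCNE2 went from 40.8 and 36.1 CPM to 29.3 and 26.99 CPM, a fall of 0.44 (SE 0.066, edgeR adjusted p = 3.23e-07). RBL1 fell least, by 0.16 (SE 0.054, adjusted p = 0.0145), from 57.9 and 62.5 CPM to 54.5 and 52.6 CPM. These 3 were also among the 6 called lower after PHF10 knockdown, but in the joint fit, where 0 members were called in experiment 2. In neither the joint fit nor the separate edgeR fits was a member called in both comparisons.

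CCNE1 was the member that rose most. It went from 23.2 and 24.0 CPM to 32.7 and 33.1 CPM, with a rise of 0.49 on the log2 scale (SE 0.067, edgeR adjusted p = 2.16e-08). CCNE2 and CCNE1 thus moved in opposite directions in the same libraries, and the share of cyclin E transcripts from CCNE1 was 49.5% and 53.5% in the controls and 65.8% and 67.9% in the labelled libraries. RB1 rose by 0.19 (SE 0.044, adjusted p = 0.000349), from 124 and 126 CPM to 143 and 139.9 CPM, and RBL2 by 0.17 (SE 0.045, adjusted p = 0.00195), from 108 and 106 CPM to 121 and 117 CPM.

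E2F2 measured 16.2 CPM in both controls and 17.1 and 14.9 CPM in the labelled libraries, on either side of them. E2F7 measured 86.2 and 81.7 CPM in the controls and 80.1 and 83.1 CPM in the labelled libraries, also overlapping. The summed pocket protein RPKM over that of the activators was 0.963 and 0.992 in the controls and 1.27 and 1.26 in the labelled libraries.

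The difference between the 2 responses was tested in the fit of all libraries. By edgeR 0 of the 10 members passed (0.385% of all genes did) and 4 had an unadjusted p under 0.05 (11.7% of all genes did). Limma called 0 and DESeq2 1, E2F2 (adjusted p = 0.0336). Of all genes, DESeq2 called 270 lower and 363 higher, against 23 and 48 by edgeR. The difference for E2F2, the PHF10 response minus the other, was −1.02 (SE 0.29; edgeR adjusted p = 0.173) and for E2F1 −0.89 (SE 0.26; 0.202). For CCNE1, which had a negative value in one experiment and a positive one in the other, it was −1.07 (SE 0.52; 0.482). E2F1 and CCNE1 passed with no filter on low counts (0.0292 and 0.00939), where 333 of all genes were lower and 585 higher. For E2F3 it was −0.21 (SE 0.15; 0.696) and for RB1 0.20 (SE 0.16; 0.733).

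Of the rest of the pathway, genes were taken from lists by role. Other E2F and DP genes encode repressive E2F factors and the DP partners that E2F needs to bind DNA. Of 5 listed, 1 fell after PHF10 knockdown, where 3.58% of all genes fell (0.151% with experiment 1 fitted alone). That gene was TFDP2, which fell by 0.50 (SE 0.11; edgeR adjusted p = 0.0269). Its controls had 44.2 ± 1.8 CPM (SD, n = 2) and the knockdown libraries 31.4 ± 3.0 CPM (SD, n = 4). It missed the threshold without either control (0.155 and 0.127) or any 1 library of experiment 2 (0.0629 to 0.0663). TFDP2 also missed it with experiment 1 fitted alone (0.156). TFDP1 had −0.41 (SE 0.12; 0.0727) and E2F4 −0.13, and TFDP1 passed by DESeq2 (0.00856), with the interferon split as a term (0.0111) and without PHF10 knockdown replicate 4 (0.0428). In experiment 2 alone, where 44.5% of all genes were called, 2 of 5 fell, TFDP1 by 0.52 and E2F4 by 0.34 (edgeR adjusted p = 2.23e-15 and 4.12e-09). In the joint fit 0 of the 5 passed there by edgeR or limma, 1 did by DESeq2 and 1 had an unadjusted p under 0.05 (TFDP1 adjusted p = 0.132 and E2F4 0.399 by edgeR).

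Genes upstream of RB were taken from lists of cyclins and kinases and of their inhibitors. Of 5 tested D-type cyclins and G1 kinases 0 passed by edgeR, DESeq2 or limma and 0 had an unadjusted p under 0.05. Their median log2 fold change was −0.21. Of all tested genes 6.34% passed by edgeR and 22.7% had an unadjusted p under 0.05. Of 6 tested CDK inhibitors 0 passed by the same tools and 1 had an unadjusted p under 0.05, with a median of 0.30. That gene was CDKN2C (p18), an inhibitor of CDK4 and CDK6, which had −0.51 (SE 0.21; edgeR adjusted p = 0.182). It passed with no filter on low counts (0.0391) and with the interferon split as a term (0.02). CDKN1C (p57) had 0.86 (SE 0.41; 0.247) and passed with no filter (0.000135). CDK2, the partner of cyclin E, had −0.40 (SE 0.26) and CDKN1A (p21), the inhibitor induced by p53, 0.39 (SE 0.20). CDKN2A was at 2.26 ± 0.043 CPM (SD, n = 2) in the controls of experiment 1. In experiment 2 alone 4 of the 6 inhibitors rose and 1 fell, and of the 5 cyclins and kinases 4 fell and 1 rose, where 44.5% of all genes were called. CDKN1B (p27), an inhibitor of CDK2, rose there by 0.59 (edgeR adjusted p = 6.15e-13) and CDKN1A by 0.49 (0.00472), while CDK6 fell by 0.34 (8.61e-10) and CDK4 by 0.30 (6.01e-08). In the joint fit these 4 did not pass by edgeR (0.157, 0.408, 0.341 and 0.587).

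The MuvB complex represses cell cycle genes together with RBL1 or RBL2 and activates them together with MYBL2 or FOXM1. Of 7 genes listed for its core and these 2 partners, 5 fell after PHF10 knockdown, where 3.58% of all genes fell (0.151% with experiment 1 fitted alone). They were both partners, and LIN9, LIN54 and RBBP4 of the core, but not LIN37 or LIN52. MYBL2 fell by 1.501 (SE 0.27; edgeR adjusted p = 0.0142), from 109 ± 4.1 to 38.6 ± 15 CPM, FOXM1 by 1.15 (SE 0.24; 0.0232), LIN9 by 0.70 (SE 0.11; 0.00738), RBBP4 by 0.57 and LIN54 by 0.56. With experiment 1 fitted alone by edgeR, or without control replicate 1 or control replicate 2, 0 of the 7 passed, and RBBP4 also missed the threshold with any 1 library of experiment 2 left out (0.0572 to 0.0586). In experiment 2 alone, where 22.6% of all genes fell, 3 of the 7 did, among them MYBL2 by 0.70 and FOXM1 by 0.36 (adjusted p = 3.8e-19 and 7.28e-10). In the joint fit 0 of the 7 passed there by edgeR, DESeq2 or limma and 0 had an unadjusted p under 0.05, with adjusted p = 0.39 for MYBL2 and 0.65 for FOXM1 by edgeR.

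Of 6 genes that act on E2F1, cyclin E or CDK2, 3 fell after PHF10 knockdown, where 3.58% of all genes fell (0.151% with experiment 1 fitted alone). FBXO5, the inhibitor of the APC/C ligase, fell by 0.85 (SE 0.14; edgeR adjusted p = 0.00889), CDC25A, the phosphatase that activates CDK2, by 0.63 (SE 0.14; 0.0297), and CCNF, the F-box cyclin that marks activator E2F factors for destruction, by 0.96 (SE 0.22; 0.0342). With experiment 1 fitted alone by edgeR, or without control replicate 1, 0 of these passed, and without control replicate 2 only FBXO5 did. CDC25A and CCNF also missed the threshold with any 1 library of experiment 2 left out (0.0608 to 0.0691) or without PHF10 knockdown replicate 4 (0.0532 and 0.0547), and CCNF without replicate 2 (0.0638) or with the unstranded column (0.0704). SKP2, the F-box protein that targets p27, had −0.60 (SE 0.18; 0.0864), and passed by DESeq2 (0.0381), with no filter (0.00547) and without PHF10 knockdown replicate 4 (0.0333). In experiment 2 alone, where 22.6% of all genes fell, SKP2 fell by 0.90 (2.97e-21), and in the joint fit it did not pass there by edgeR (0.105).

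Among 34 textbook E2F target genes of replication, 26 fell after PHF10 knockdown by edgeR and 0 rose. Of all tested genes 3.58% fell (0.151% with experiment 1 fitted alone) and 2.75% rose. All 34 had a negative fold change, as 47.9% of all genes did, with a median of −0.94. The helicase subunit GINS1 fell by 1.48 (SE 0.12), the checkpoint adaptor CLSPN by 1.33 (SE 0.13), UHRF1 by 1.16 (SE 0.14) and BRCA1 by 1.07 (SE 0.12). All of them had groups apart, as 13.7% of all genes did in the lower direction. With experiment 1 fitted alone 3 of the 34 fell (GINS1, CLSPN and BRCA1), and 6 did without control replicate 1 or control replicate 2. With any 1 library of experiment 2 left out it was 14 or 15. In experiment 2 all 34 were negative too, as 51.1% of all genes were, with a median of −0.39. There 0 passed in the joint fit by edgeR or limma and 1 by DESeq2, which called 366 of all genes lower. An unadjusted p under 0.05 was reached by 9 of the 34, and by 13.2% of all genes. With the experiment fitted alone 34 fell, where 22.6% of all genes did. Of the 45 promoter windows found for 28 of these genes, 42.2% held an E2F word, against 3.31% of all windows. The list was made of known E2F targets, so this share describes the list and is no result of the knockdown.

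**Figure D4:**
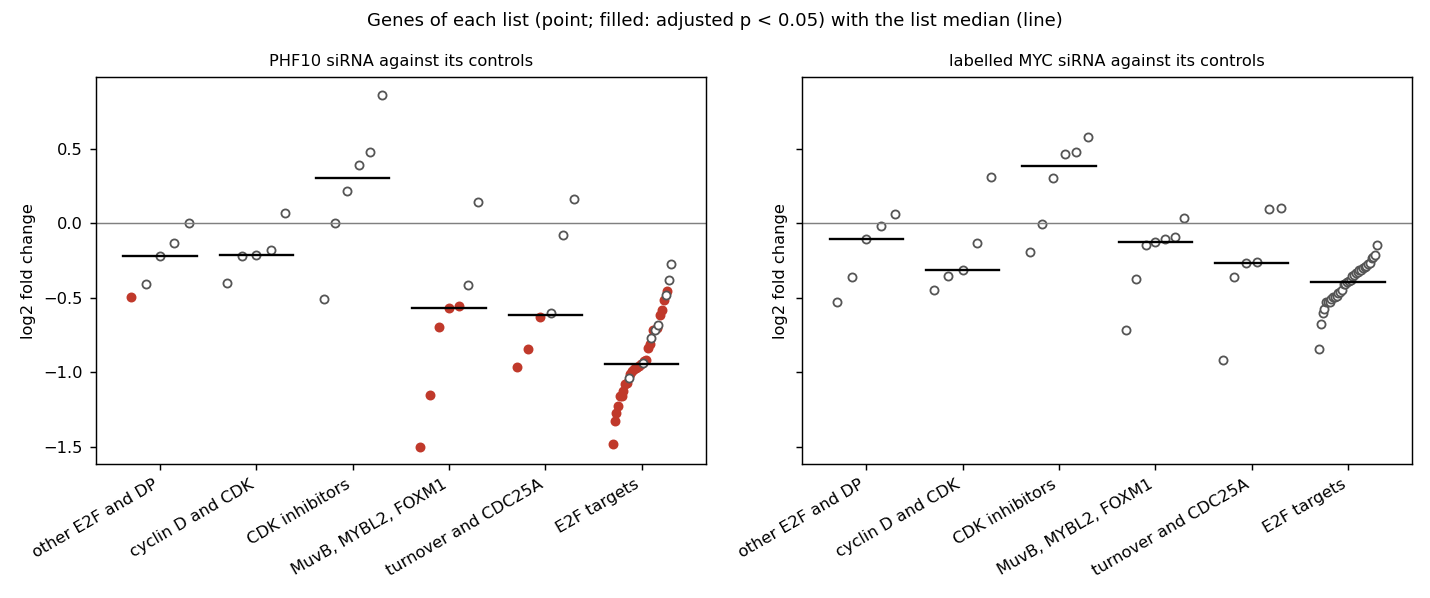
Log2 fold change of each tested gene of the 6 pathway lists (points; filled points have an adjusted p under 0.05 in the fit of all libraries) and the list median (line), after PHF10 siRNA (left) and in the libraries labelled MYC siRNA (right). The E2F targets lie below 0 throughout in both panels, with medians of −0.94 and −0.39, and the CDK inhibitors have medians of 0.30 and 0.38.

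The genes whose profile was nearest to E2F1 were found from log2 CPM over the 10 libraries after subtracting the mean of each experiment, as the smallest root mean square difference among 11543 genes with a mean of at least 5 CPM. PKMYT1 was nearest (0.071 on the log2 scale), followed by CENPU (0.092), HASPIN (0.099), SHCBP1 (0.11) and DIAPH3 (0.11), where the median gene was at 0.509. Of the members, E2F2 ranked 15 by this measure (0.12), E2F8 59, CCNE2 221, RBL1 673 and E2F3 933. CCNE1, RBL2, E2F7 and RB1 ranked 4005 to 9539.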

How the data were processed

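The deposited values are raw read counts per gene in 1 table per library, made by the authors; cutadapt, STAR and the build GRCh38.p13 (hg38) are named in the submitters' processing notes. Their versions, like the annotation, were not given in the sources used here. Per the labels' protocols, the libraries were directional and the reads single, of 100 nt. Counts on the strand opposite to the gene were used, since they made up most gene reads, and the same-strand column held 5.27% to 5.55% of stranded gene reads. Lines for reads that were not assigned to a gene (19.1% to 23.6% of a library) were left out. Symbols came from a table of gene names (60295 of 60623 IDs), exon lengths and coordinates from GENCODE release 29. Counts were fitted by quasi-likelihood in edgeR 4.0.16 (R 4.3.3; TMM, filterByExpr, robust), all 10 libraries as 4 group means, with Benjamini-Hochberg adjustment over 18450 genes. Alternatives used DESeq2 1.42.0, limma 3.58.1, other factors, filters and columns, and left-out libraries. The fit was tested on simulated data in which each gene had 1 spread in all libraries. That test therefore did not cover the unequal spread of the 2 experiments. Genes named are the 10 members, the targets of the siRNA, up to 4 genes of each list by p after PHF10 knockdown and up to 2 in experiment 2, and the 5 profiles nearest to E2F1, apart from 1 gene that is not reported here. Members and lists were chosen with earlier results of these data known.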

Additional observations from a re-analysis of the deposited data

How the results depend on the processing

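The counts and the log2 fold changes of the members, and those of named pathway genes in the PHF10 and MYC comparisons, were recomputed under 22 alternatives, 3 of which did not apply to every comparison. RPKM orders, shares and ratios and the nearest profiles were not recomputed. All 10 members kept the direction of their fold change after PHF10 knockdown and of the difference between responses. In experiment 2, E2F2, which lay near 0, turned from −0.02 to 0.001 with upper-quartile factors and with experiment 2 alone, and ranged from −0.12 to 0.075 with 1 library left out, the highest without MYC knockdown replicate 2. The 6 members lower after PHF10 knockdown became 0 with experiment 1 fitted alone and 2 in the low interferon part (5 in the high part), where all genes lower numbered 469 (383). These parts were chosen after seeing the data, each with 1 control, whose spread was borrowed from the other libraries. The count ranged from 1 to 6 with 1 library left out, the 1 being E2F1 without either control of experiment 1. The 0 members higher became 1, RB1, by DESeq2, with upper-quartile factors, with 1 CPM in 4 libraries and with the split as a term, and ranged from 0 to 1 with 1 library left out. In experiment 2 alone 3 members were higher and 5 lower, against 0 and 0. The difference had 1 member lower by DESeq2 and 2 with no filter, against 0. All genes lower numbered 270 and 333 in these settings, against 23. With the replicate block 4 members fell after PHF10 knockdown, where 503 of all genes fell. E2F3 and RBL1 missed the threshold there (edgeR adjusted p = 0.0935 and 0.0517), while CDKN2C passed with −0.88 (0.0255). No control is numbered 3 or 4, so the block takes up PHF10 knockdown replicates 3 and 4 completely. Its fold changes rest on knockdown replicates 1 and 2, both with high interferon genes, against the 2 controls. Whether libraries with the same number are paired cannot be told from these data. Deviations of same-numbered libraries correlated at 0.137 in experiment 1, where only numbers 1 and 2 were used, and at −0.031 in experiment 2. The deviations of 2 libraries mirror each other, so each value rests on 1 contrast and cannot decide this. Of all tested genes, PHF10 knockdown raised 508 and lowered 661, against 23 and 27 with experiment 1 alone, 1032 and 1133 by DESeq2 and 68 and 151 without control replicate 2. In experiment 2 these were 52 and 39, 3827 and 3954 with it fitted alone, and 0 and 0 with the replicate block or any 1 of its libraries left out. A group left with 1 library was assumed to vary like the others. E2F8, at 33 to 140 reads in experiment 1, is the member most limited by depth.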
